A study of Homo sapiens with 11 samples.

Results

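The Klf4 line of ARPE-19 cells was compared with the GFP line to ask which transcripts differ when Klf4 alone is expressed. ARPE-19 is an established human line of the retinal pigment epithelium (RPE), the pigmented cell layer behind the photoreceptors. Stable lines carried an open reading frame for GFP (green fluorescent protein, the control; 3 libraries), Oct4, Sox2, Klf4 or Oct4, Sox2 and Klf4 combined (OSK; 2 libraries each), and polyadenylated RNA was sequenced after 4 days of expression. The comparison used 5 of the 11 libraries, the 2 Klf4 and 3 GFP libraries named in the sample titles, and the other 6 entered the fit for the estimate of spread. Of 60605 features listed, 18828 were tested, those whose value was 10 or more in 2 or more of the 11 libraries. All lines share the ARPE-19 background. The labels give neither the promoter that drives the reading frames, nor their species, nor how many clones a line holds. They also do not say that libraries of a line came from separate cultures, so the p-values measure only the spread between these libraries, which may be technical.

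KLF4 is a zinc finger transcription factor that binds GC-rich sequences containing CACCC through its carboxy-terminal fingers. It is best known as a regulator of epidermal barrier formation and of the halt of the cell cycle in gut and skin epithelium, and as a reprogramming factor beside OCT4 and SOX2. It can raise or lower its targets, and is known to oppose the contractile programme in smooth muscle cells.

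Values are normalised counts, the read counts of a library divided by a factor for that library. Recovered reads were 16345058, 17438689 and 18125321 in GFP replicates 1 to 3 and 15521941 and 15602120 in Klf4 replicates 1 and 2. GFP replicate 1 stood apart: 42956 features had at least 1 read in it, against 26509 and 26448 in the other GFP libraries and 25853 and 26408 in the Klf4 libraries. Features with olfactory receptor names, which these cells are not known to use, were detected at 67.7% of 405 in GFP replicate 1 and at most 8.15% in the other libraries except OSK replicate 1 (23.0%). Results are therefore also given without GFP replicate 1 where it moves them, and low values in it are the most affected. The RPE label was only partly borne out by markers. RPE65, the retinoid isomerase that defines mature RPE, was at or near 0 (at most 0.99 in GFP and 4.63 in Klf4), whereas MITF, PMEL, TYRP1 and TYR, genes of pigment cells, were all expressed. Replicates of the Klf4 line differed by a median of 0.17 on the log2 scale over the genes tested, and GFP replicates by 0.141 to 0.219.

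KLF4 itself had 24205 and 22142 normalised counts in the Klf4 libraries and 124, 45.5 and 46.7 in GFP. Both Klf4 libraries lay far above all GFP libraries. The log2 change was 8.47 (SE 0.29, limma adjusted p = 1e-11), and 8.94 without GFP replicate 1. Of the other reprogramming factors, SOX2 had 136 and 184 against 82.4, 59.7 and 43.7 (log2 change 1.39, SE 0.18, limma adjusted p = 1.82e-05). POU5F1, the gene of Oct4, was close to the threshold (0.45, SE 0.17, limma adjusted p = 0.0449) and missed it without Klf4 replicate 2 (0.15, adjusted p = 0.582) and without GFP replicate 2 or 3 (adjusted p = 0.1 and 0.0891). Near-identical pseudogene copies of POU5F1 exist, so its low counts are uncertain.

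Across the genes tested, 6315 passed an adjusted p of 0.05 (33.5%), 3307 higher (17.6%) and 3008 lower (16.0%) in the Klf4 line. When only the 12472 genes with a mean of at least 50 were tested, 5864 were called, a larger share. Most changes were small: the median log2 change was 0.65 among genes called higher and -0.59 among those called lower, and -0.02 over all genes tested. The large changes were mostly rises. A log2 change of 1 or more in either direction was seen in 1845 genes called (9.8%), 1066 called higher (5.66%) and 779 called lower (4.14%), and a log2 change of at least 3 by 164 higher and 23 lower. The 5 libraries did not overlap between the lines for 10172 genes (54.0%; Klf4 higher in 27.3% and lower in 26.8%), and 6283 of the genes called were among them. Without GFP replicate 1, 6597 genes were called (35.0%; 18.2% higher and 16.9% lower), of which 5748 were also called with all libraries in the same direction, and 0 in the opposite direction.

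**Figure D1:**
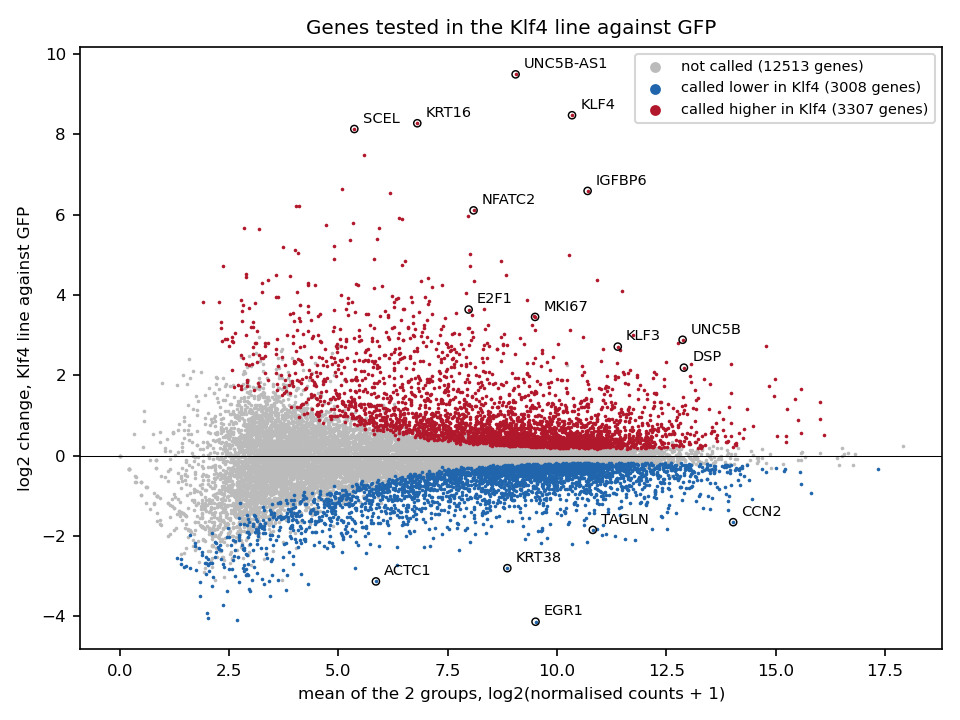
Each point is 1 of the 18828 genes tested, with the mean of the GFP and Klf4 lines on the x axis (log2 of normalised counts + 1) and the log2 change of Klf4 against GFP on the y axis. Red and blue points are the 3307 and 3008 genes called higher and lower by limma; the upper edge reaches past 9 (UNC5B-AS1), and EGR1 is the lowest labelled gene at -4.14.

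The largest rises were an antisense RNA, a growth factor binding protein, a group of genes of stratified epithelium and a few signalling genes. UNC5B-AS1, an RNA transcribed antisense to the netrin receptor gene UNC5B, had 17337 and 11242 normalised counts in Klf4 and 23.8, 14.2 and 18.5 in GFP, the largest change of all genes the naming rule took (log2 change 9.49, SE 0.23, limma adjusted p = 1.88e-13). UNC5B, singled out after its values were seen, had 21038 and 19519 against 2178, 2983 and 3189 (2.88, SE 0.19, limma adjusted p = 1.34e-08). Neither gene overlapped between the lines, which the choice of UNC5B-AS1 required. Use of strand in the counting is not given in the sources used here, so reads of this sense and antisense pair cannot be told apart. IGFBP6, a secreted binding protein of insulin-like growth factor 2, had 18071 and 14639 against 189, 166 and 152 (6.59, SE 0.11, limma adjusted p = 2.13e-15). NFATC2, a calcium-responsive transcription factor, had 1965 and 2381 against 53.6, 19.2 and 27.2 (6.10, SE 0.27, limma adjusted p = 1.42e-10). SLCO4A1, an organic anion transporter, had 1881 and 1995 against 46.7, 24.3 and 24.3 (5.96, SE 0.36, limma adjusted p = 4.2e-09).

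Several of the other large rises started from almost no reads in GFP. SCEL, sciellin, a protein of the cornified envelope, had 758 and 531 normalised counts in Klf4 and 2.98, 0 and 1.94 in GFP, at least 216.5-fold higher against a floor of 3 reads per library. ZBED2, a zinc finger gene, had 143 and 126 against 1.99, 1.01 and 0, at least 45.2-fold higher by the same floor. Neither gene had more than 3 reads in any GFP library. KRT16, a keratin of activated epidermis, had 1317 and 1289 against 23.8, 2.02 and 0. Its log2 change of 8.27 (SE 0.96, limma adjusted p = 5.98e-06) was 7.23 without GFP replicate 3, and without GFP replicate 1, which held nearly all of its GFP reads, the rise was at least 437.9-fold against the floor. LYPD2, a small glycolipid-anchored surface protein, had 128 and 121 against 3.97, 0 and 0, and TNFAIP2, a gene induced by tumour necrosis factor, had 431 and 474 against 28.8, 0 and 2.92. The long non-coding RNA LINC01133 had 579 and 492 against 7.94, 0 and 1.94. In all of these the highest GFP value was that of replicate 1. Both Klf4 libraries lay above it, which the choice of these genes required. Without GFP replicate 2 the log2 change of TNFAIP2 went from 6.53 to 5.39 and that of LINC01133 from 7.49 to 6.71. Without GFP replicate 1 the remaining GFP libraries had at most 3 reads of each, and the rises against the floor were at least 152.2-fold for TNFAIP2, 180.1-fold for LINC01133 and 41.93-fold for LYPD2. KRT16 shares long stretches with other type I keratins and their pseudogenes, so its reads may be split with them.

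**Figure D2:**
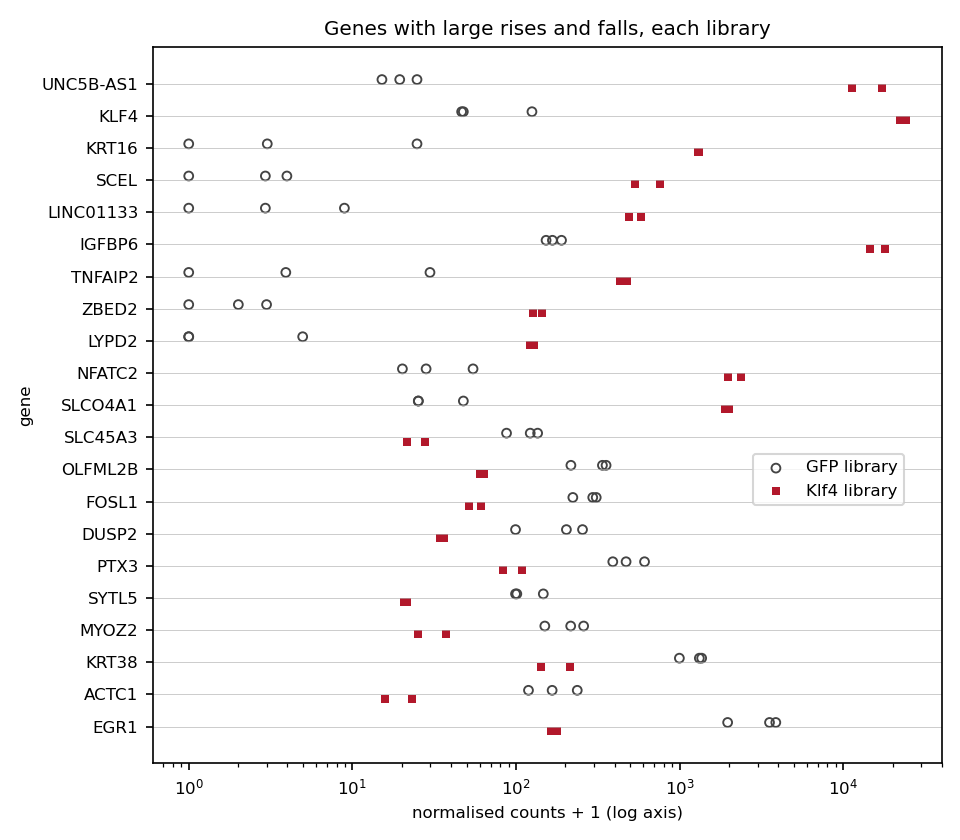
Normalised counts + 1 (log axis) of genes among the largest rises and falls in each GFP library (open circles) and Klf4 library (red squares). No GFP and Klf4 points overlap within a gene, which the choice of these genes required; for KRT16 the GFP points spread from 0 to 23.8 normalised counts, while the 2 Klf4 libraries sit at 1317 and 1289.

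The 250 bases before the RefSeq start (GRCh38.p14, printed in the direction of transcription) are shown for 3 of these barrier and secreted genes, since CACCC is the core of the sequence KLF4 is known to bind. Capitals mark CACCC on either strand (GGGTG is its complement). SCEL (chr13:77535456-77535705, plus strand) held 2 matches, IGFBP6 (chr12:53097417-53097666, plus strand) held 2, and DSP (chr6:7541421-7541670, plus strand), desmoplakin, described with the desmosome genes, held 4.
SCEL: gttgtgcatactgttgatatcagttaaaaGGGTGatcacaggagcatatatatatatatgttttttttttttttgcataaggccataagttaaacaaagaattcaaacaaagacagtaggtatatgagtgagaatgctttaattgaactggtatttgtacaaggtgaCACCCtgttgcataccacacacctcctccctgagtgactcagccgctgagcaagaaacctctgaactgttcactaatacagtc
IGFBP6: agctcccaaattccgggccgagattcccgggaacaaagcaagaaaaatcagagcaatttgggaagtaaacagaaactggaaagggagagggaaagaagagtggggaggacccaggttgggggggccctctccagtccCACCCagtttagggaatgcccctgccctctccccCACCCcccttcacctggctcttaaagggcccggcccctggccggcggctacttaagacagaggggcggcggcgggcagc
DSP: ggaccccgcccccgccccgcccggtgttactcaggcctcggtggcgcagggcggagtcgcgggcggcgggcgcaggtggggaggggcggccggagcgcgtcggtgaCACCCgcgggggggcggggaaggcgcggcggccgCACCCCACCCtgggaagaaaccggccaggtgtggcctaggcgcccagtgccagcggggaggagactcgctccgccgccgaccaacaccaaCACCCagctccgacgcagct
Matches to a motif this short are common. CACCC stood in 58.6% of 8666 promoters of tested genes with a single RefSeq start, in 61.4% of 1686 called higher, in 61.3% of 1532 called lower and in 56.9% of 5448 not called. Among promoters of genes called higher with a log2 change of at least 2 the share was 62.2% of 196. For genes called lower with a log2 change of at most -2 it was 62.3% of 53. The share was 9 of 9 for keratins and 9 of 11 for cornified envelope and desmosome genes. At least 3 matches stood in 8.6% of the promoters of tested genes, in 14.3% of those called higher with a log2 change of at least 2, in 36.4% of the cornified list and in 0.0% of the keratins.

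The largest falls were led by EGR1, an immediate early transcription factor induced by growth factor signalling. It had 177 and 162 normalised counts in Klf4, whereas the GFP libraries had 1963, 3540 and 3868 (log2 change -4.14, SE 0.22, limma adjusted p = 1.11e-09). ACTC1, cardiac alpha actin, had 22.0 and 14.9 against 118, 236 and 165 (-3.13, SE 0.27, limma adjusted p = 2.84e-07). KRT38, a hair keratin, had 213 and 141 against 995, 1318 and 1362 (-2.80, SE 0.26, limma adjusted p = 4.26e-07). All Klf4 values of these 3 genes lay below all GFP values, which their choice required. Others among the 12 were MYOZ2 (-2.72), a sarcomere protein that binds calcineurin, SYTL5 (-2.43), a Rab27 effector of vesicle transport, and PTX3 (-2.34), a secreted pattern recognition protein. The 12 also held DUSP2 (-2.28), a MAP kinase phosphatase, FOSL1 (-2.28), an AP-1 subunit, OLFML2B (-2.26), an extracellular matrix protein, and SLC45A3 (-2.21), known from prostate epithelium. The falls were smaller than the rises on this scale: the 12 falls ran from -4.14 to -2.21, and the 12 rises from 9.49 to 5.96.

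Cell cycle genes gave the most one-sided change of the lists examined. Of 60 mitosis genes (cyclins, spindle, kinetochore and cytokinesis genes), all were tested, 58 rose and 0 fell, with a median log2 change of 2.37, against 17.6% called higher and a median of -0.02 over all genes tested. MKI67, the marker protein Ki-67 of dividing cells, had 2077 and 2721 normalised counts in Klf4 and 190, 251 and 213 in GFP, which is a log2 change of 3.45 (SE 0.12, limma adjusted p = 1.55e-11). CDK1, the kinase that drives entry into mitosis, had 431 and 480 against 48.7, 59.7 and 60.3 (3.00, SE 0.19, limma adjusted p = 6.04e-09). HMMR, a spindle-associated protein, had 436 and 510 against 51.6, 45.5 and 27.2 (3.52, SE 0.22, limma adjusted p = 5.61e-09). Klf4 and GFP libraries were well apart for each of these genes. CCNB1, cyclin B1, which KLF4 is known to repress in other cells, rose by 2.02 (SE 0.13, limma adjusted p = 9.38e-09), UBE2C, the conjugating enzyme of the anaphase promoting complex, by 3.37, and TOP2A, topoisomerase II, by 3.12. The summed level of the 60 genes was 29831 and 35494 in Klf4 and 8361 to 8886 in GFP. Of the 2 genes that did not pass, NUSAP1 had 12.7 and 8.0 against 17.9, 3.03 and 0.97, and CDC25C had 39.3 and 33.1 against 33.8, 16.2 and 13.6. Both were called higher without GFP replicate 1, which held the highest GFP value of each. BUB3 passed with all libraries (0.22; limma adjusted p = 0.0257), but not without Klf4 replicate 2 (0.13, adjusted p = 0.32) or GFP replicate 3 (adjusted p = 0.0642).

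Of 58 DNA replication genes, 45 rose and 1 fell, beside 17.6% and 16.0% of all genes tested. The median log2 change of the list was 0.84, and 47 rose and 1 fell without GFP replicate 1. E2F1, the transcription factor of S phase entry, had 783 and 1001 normalised counts against 70.5, 76.9 and 64.2 (log2 change 3.64, SE 0.14, limma adjusted p = 4.93e-11). TK1, thymidine kinase, had 695 and 799 against 62.6, 109 and 79.7 (3.17, SE 0.17, limma adjusted p = 1.11e-09). RRM2, a subunit of ribonucleotide reductase, rose by 2.20 and PCNA, the polymerase clamp, by 0.40. The gene that fell was CCNE1, cyclin E1 (-0.69, SE 0.19, limma adjusted p = 0.0123), and it missed the threshold without either Klf4 library (adjusted p = 0.0605 and 0.063). MCM2 of the replicative helicase rose by 0.50 and missed it without Klf4 replicate 1 (0.44, adjusted p = 0.102). CCND1, cyclin D1, which drives G1 and was counted with the brakes listed next, had 12567 and 11466 against 4018, 5737 and 5409 (1.26, SE 0.12, limma adjusted p = 4.41e-07).

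The genes listed as brakes of the cycle did not move as a block. This list also held drivers of the cycle such as CCND1, so its counts do not describe inhibitors alone. Of 42 CDK inhibitor, growth arrest and related genes tested, 10 rose and 13 fell, with a median log2 change of -0.01. The share called was 54.8%, beside 33.5% of all genes tested. CDKN1A, the p21 inhibitor and a textbook target that KLF4 raises in other epithelia, had 4296 and 4061 normalised counts in Klf4 and 4018, 5862 and 5822 in GFP. The lines overlapped through GFP replicate 1, and the change did not pass (-0.30, SE 0.12, limma adjusted p = 0.0656), although it passed without that library (-0.48, adjusted p = 4.52e-06) and with DESeq2 (adjusted p = 0.0215). GADD45A, a growth arrest gene, fell by 1.19, CDKN2B (p15) by 0.90 and CDK4, the partner kinase of cyclin D, by 0.86. CDKN2C (p18), which E2F factors are known to induce, had 542 and 588 against 55.6, 43.5 and 57.4 (3.42, SE 0.14, limma adjusted p = 7.48e-11). CDKN3 rose by 2.04, CDKN1C (p57) by 1.10 and the death receptor gene FAS by 1.98. CDKN2A, with 124 and 125 against 84.4, 95.1 and 93.3, did not pass (0.45; limma adjusted p = 0.0675).

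**Figure D3:**
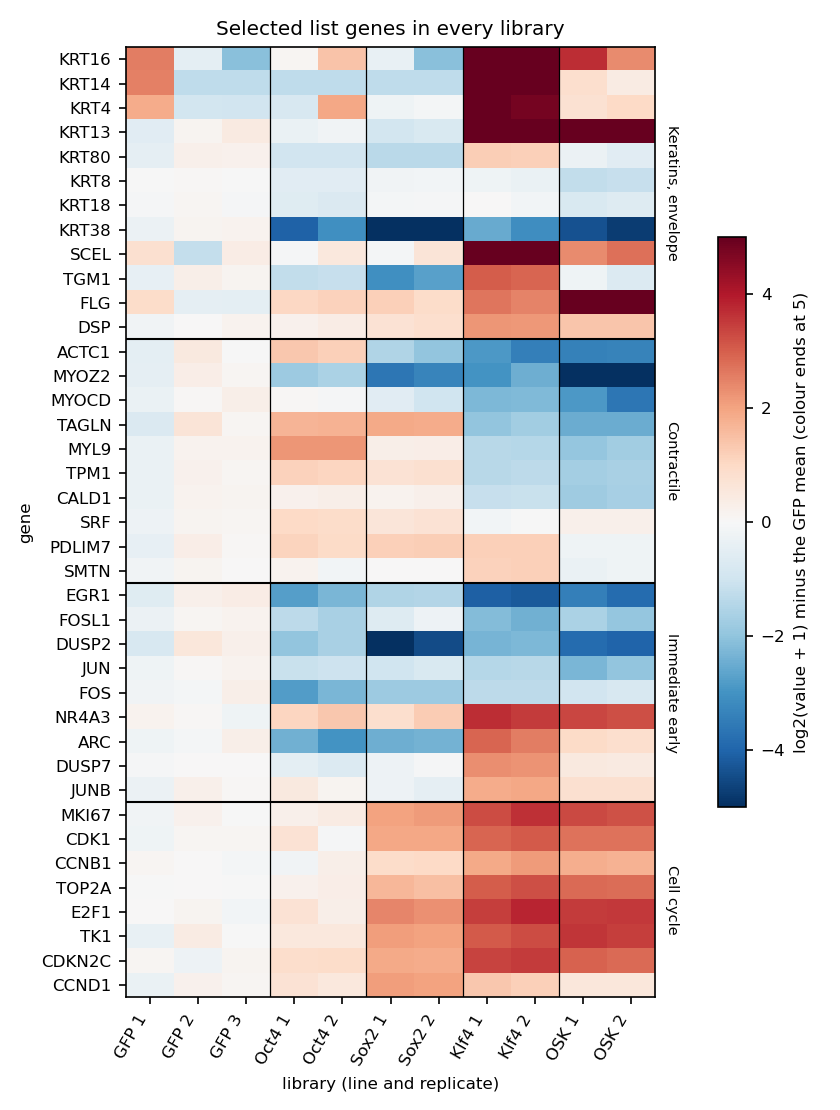
Each row is a gene named in the text and each column 1 of the 11 libraries; colour is log2(normalised counts + 1) minus the mean of the 3 GFP libraries, and ends at 5 in either direction. The Klf4 columns are red for most cell cycle rows and for KRT16, KRT13, SCEL and TGM1, and blue for EGR1, ACTC1 and TAGLN; MKI67 is 3.45 above GFP and EGR1 4.14 below.

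Other members of the KLF family changed in both directions. Of 14 tested, KLF4 itself among them, 4 rose and 5 fell, which is 64.3% called beside 33.5% of all genes tested. KLF3, a repressor that competes for the same CACCC sites, had 6783 and 6973 normalised counts in Klf4 and 1047, 1093 and 1008 in GFP, which is a log2 change of 2.71 (SE 0.07, limma adjusted p = 2.26e-13). KLF13 rose by 0.87. KLF5, a growth-promoting relative of KLF4 in gut epithelium, had 1349 and 1394 against 2264, 2198 and 2290 (-0.71, SE 0.07, limma adjusted p = 8.53e-07). KLF11, a regulator of TGF-beta responses, fell by 1.92, KLF15 by 1.07, KLF7 by 0.83 and KLF6 by 0.82. KLF2, which shares functions with KLF4 in endothelium, had 54.4 and 35.4 against 72.5, 87.0 and 59.3 and did not pass (-0.70, SE 0.32, limma adjusted p = 0.108).

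Genes of stratified epithelium rose in part. The filter could be met by the 2 Klf4 libraries alone, and a gene tested on that ground could rise but hardly fall. This may add to the rises and medians of the keratin list and of the cornified list below. Of 21 keratins tested, out of 51 listed, 7 rose and 6 fell (median log2 change 0.33; 8 and 7 without GFP replicate 1). The share of keratins called was 61.9%, beside 33.5% of all genes tested. The falls numbered 3 without Klf4 replicate 2, and the median was -0.03 without that library and 1.09 without Klf4 replicate 1. KRT13, a keratin of moist stratified epithelium, had 1422 and 1469 normalised counts against 28.8, 48.6 and 59.3 (5.02, SE 0.23, limma adjusted p = 1.62e-10). KRT4, its usual partner and a textbook KLF4 target, had 189 and 105 against 12.9, 1.01 and 0.97 (5.22, SE 0.89, limma adjusted p = 0.000255), at least 49.34-fold higher against the floor without GFP replicate 1. KRT14 of basal epidermis had 111 and 147 against 12.9, 0 and 0. Its log2 change of 5.74 passed with limma (adjusted p = 0.000503) but not with DESeq2 (adjusted p = 0.24), and was 5.11 without GFP replicate 2 or 3. Without GFP replicate 1 the rise was at least 43.43-fold against the floor. The keratins of simple epithelium that ARPE-19 expresses at high levels did not rise. KRT18 had 5368 and 4830 against 5137, 5682 and 5100 (-0.06; limma adjusted p = 0.598), KRT7 fell by 0.62, and KRT8 fell by 0.27 (limma adjusted p = 0.00446; -0.23 and 0.0664 without Klf4 replicate 2). KRT80, a keratin linked to desmosomes, rose by 1.21, from 7484 to 12095 in GFP to 24023 and 23002. KRT10 of the upper epidermis had 463 and 479 against 504, 554 and 531 (-0.17; limma adjusted p = 0.236).

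Of 22 cornified envelope and desmosome genes tested, out of 59 listed, 10 rose and 4 fell (median log2 change 0.68). The share of this list called was 63.6%, beside 33.5% of all genes tested. The rises numbered 6 without GFP replicate 3 or without Klf4 replicate 1. DSP, desmoplakin, which anchors keratin filaments to desmosomes, had 16760 and 15914 normalised counts against 3159, 3626 and 4016 (2.19, SE 0.09, limma adjusted p = 6e-11). TGM1, the transglutaminase that crosslinks the envelope, had 4407 and 4088 against 409, 668 and 596 (2.96, SE 0.17, limma adjusted p = 3.45e-09). Both genes were several-fold above GFP in both Klf4 libraries. FLG, filaggrin, rose by 2.58 and the epidermal protease gene KLK11 by 2.08. Other desmosome genes went down: PKP2, plakophilin 2, fell by 0.95 and DSC2, desmocollin 2, by 0.89. Of 8 keratinocyte markers, some of them also in the keratin list, KRT14 rose and TP63 fell. KRT1, LGALS7 and DSG3 were at 0 in both Klf4 libraries, and the summed level was 564 to 611 in GFP and 593 to 640 in Klf4. TP63, the master regulator of stratified epithelium, had 6.94 and 5.71 against 22.8, 34.4 and 29.2 (-2.01; limma adjusted p = 0.00958; 0.0655 without Klf4 replicate 2).

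Of 38 junction and polarity genes tested, 5 rose and 9 fell, with a median log2 change of -0.27 (6 and 10 without GFP replicate 1). The share called, 36.8%, was near the 33.5% of all genes tested. CDH1, E-cadherin, a textbook target of KLF4, had 187 and 219 normalised counts against 200, 259 and 245 and did not pass (-0.20, SE 0.17, limma adjusted p = 0.395). EPCAM, another epithelial adhesion protein, was low in both lines, with 24.3 and 25.1 against 41.7, 26.3 and 19.4. CGN, cingulin, a tight junction scaffold, had 568 and 588 against 112, 85.0 and 78.7 (2.66, SE 0.16, limma adjusted p = 4.48e-09), and CLDN1, claudin 1, rose by 1.19. CLDN23 fell by 1.97 (1.17 without Klf4 replicate 1 and 2.76 without Klf4 replicate 2). Of 14 textbook KLF4 target genes tested, 7 rose and 2 fell (median 0.60), which is 64.3% called beside 33.5% of all genes tested. Among the rises were LAMA3, a laminin chain (0.55), and ODC1, ornithine decarboxylase, which KLF4 is known to repress in gut cells (0.65).

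Contractile genes, many of them targets of SRF (serum response factor) and its partners, fell. Of 41 tested, 23 fell and 5 rose (median log2 change -0.49; 28 and 5 without GFP replicate 1, 19 and 3 without Klf4 replicate 1), against 16.0% and 17.6% over all genes tested. TAGLN, transgelin, an actin crosslinker, had 844 and 996 normalised counts against 1999, 5105 and 3551 (-1.85, SE 0.24, limma adjusted p = 1.56e-05). MYL9, a myosin light chain, had 3665 and 3502 against 7428, 10778 and 10622 (-1.40, SE 0.12, limma adjusted p = 2.59e-07). TPM1, tropomyosin 1, fell by 1.35 and CALD1, caldesmon, by 1.13. For each of these the lowest GFP value was that of replicate 1, and both Klf4 libraries lay below it. MYOCD, myocardin, the coactivator of SRF in smooth muscle, had 18.5 and 19.4 against 72.5, 97.1 and 113 (-2.23, SE 0.30, limma adjusted p = 2.34e-05). SRF itself had 1328 and 1416 against 1220, 1599 and 1554 (-0.08; limma adjusted p = 0.579; -0.20 and 0.0267 without GFP replicate 1). ACTA2, smooth muscle alpha actin, had 268 and 250 against 266, 752 and 567. Klf4 replicate 1 overlapped GFP replicate 1, and the fall of 0.90 (limma adjusted p = 0.0203) missed the threshold without GFP replicate 2 (-0.58, adjusted p = 0.0785), GFP replicate 3 (adjusted p = 0.0727) or either Klf4 library (adjusted p = 0.08 and 0.11). Among the members that rose, PDLIM7, a LIM protein of actin fibres, had 6955 and 7061 against 2334, 3893 and 3163 (1.19), and SMTN, smoothelin, had 1552 and 1589 against 617, 769 and 714 (1.17). Muscle cell markers were low, with summed levels of 53.6 to 204 in GFP and 82.3 to 85.6 in Klf4, and MYOD1, MYOG, MYF5, MYH8 and TNNT3 at 0 in both Klf4 libraries.

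The CArG box, which SRF binds, was searched for in the same promoter windows on both strands. It stood in 0.8% of the 8666 promoters of tested genes and in 6 of 18 contractile genes with a single start (33.3%), against 1 of 20 immediate early and MAPK feedback genes. The windows of EGR1 (chr5:138465229-138465478, plus strand) and ACTC1 (chr15:34795550-34795799, minus strand), which fell, and SMTN (chr22:31084746-31084995, plus strand), which rose, are shown with the box in capitals. EGR1 held 2 boxes, which begin at positions -105 and -83 from the start. ACTC1 and SMTN have 3 and 4 starts in RefSeq, of which 1 each held a box, and that window is shown.
EGR1: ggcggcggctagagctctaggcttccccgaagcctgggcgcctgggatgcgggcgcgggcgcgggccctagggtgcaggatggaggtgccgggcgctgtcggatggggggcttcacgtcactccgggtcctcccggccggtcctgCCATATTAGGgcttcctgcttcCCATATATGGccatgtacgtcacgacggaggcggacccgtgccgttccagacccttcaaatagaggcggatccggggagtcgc
ACTC1: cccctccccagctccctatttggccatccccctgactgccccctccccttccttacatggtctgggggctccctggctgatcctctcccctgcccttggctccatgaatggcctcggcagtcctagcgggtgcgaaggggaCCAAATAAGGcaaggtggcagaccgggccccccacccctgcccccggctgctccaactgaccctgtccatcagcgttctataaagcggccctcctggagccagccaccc
SMTN: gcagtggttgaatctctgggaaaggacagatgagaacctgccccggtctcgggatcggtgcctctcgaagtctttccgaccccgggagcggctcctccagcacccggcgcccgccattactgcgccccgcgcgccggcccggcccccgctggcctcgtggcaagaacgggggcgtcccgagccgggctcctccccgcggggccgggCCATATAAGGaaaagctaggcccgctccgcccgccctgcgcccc
The 6 sequences are windows of the reference, and no binding was measured. Genes with a box were found on both sides of GFP, as SMTN and ACTC1 show.

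Mesenchymal and matrix genes fell with them. Of 43 tested, 22 fell and 7 rose, beside 16.0% and 17.6% of all genes tested. The median log2 change of the list was -0.49, and 26 fell and 9 rose without GFP replicate 1. With either Klf4 library left out, 4 rose. COL1A1, a chain of type I collagen, had 960 and 1357 normalised counts against 2884, 4845 and 3841 (-1.72, SE 0.21, limma adjusted p = 7.72e-06). LOXL2, a collagen crosslinking enzyme, had 294 and 585 against 1895, 1816 and 1495 (-2.06, SE 0.25, limma adjusted p = 1.06e-05). The Klf4 libraries differed between themselves for LOXL2 but both lay below GFP, which its choice required. FN1, fibronectin, fell by 0.91, CDH2, N-cadherin, by 1.04, SPARC by 0.96 and CCN2, a matricellular gene of YAP and SRF signalling, by 1.66. VIM, vimentin, had 8933 and 7512 against 6970, 9251 and 9666 and did not pass (-0.06; limma adjusted p = 0.735; -0.21 and 0.0424 without GFP replicate 1). Not every mesenchymal gene fell: ZEB1, a repressor of epithelial genes, rose by 0.91, and ITGA5, the fibronectin receptor chain, had 6607 and 7071 against 884, 1284 and 1217 (2.62, SE 0.12, limma adjusted p = 1.6e-10). Of 8 fibroblast markers 4 were tested, of which 2 fell and 2 rose. Their summed level, most of it COL1A1, was 2941 to 4877 in GFP and 1085 to 1497 in Klf4. PDGFRA, a growth factor receptor, had 2.31 and 0 against 21.8, 3.03 and 5.83 and missed the threshold without Klf4 replicate 2 (adjusted p = 0.328) and without GFP replicate 1. The markers that rose were PI16, with 40.5 and 62.8 against 2.98, 2.02 and 0, and MFAP5, a microfibril protein, with 78.7 and 72.0 against 12.9, 17.2 and 5.83. DPT was at 0 in the GFP and Klf4 libraries, and the part of fibroblasts in the result was not tested. In these bulk libraries fewer cells of a type and less RNA per cell cannot be told apart.

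TGF-beta and BMP genes moved mostly down, with exceptions. Of 44 tested, 17 fell and 9 rose (median -0.18; 20 and 9 without GFP replicate 1), beside 16.0% and 17.6% of all genes tested. Among ligands, TGFB2 fell by 1.09, TGFB1 by 0.74 and GDF11 by 1.25. TGFBI, a classic TGF-beta target, and LTBP2, a latent TGF-beta binding protein, fell by 1.09 and 1.02, and SMAD7, the pathway's feedback inhibitor, by 0.92. On the other side, BMP1, a protease that matures procollagen, had 18555 and 19291 against 3736, 4272 and 3630 (2.29, SE 0.10, limma adjusted p = 1.83e-10). ID1, a BMP target, rose by 1.04. CHRD, the BMP antagonist chordin, rose from at most 32.8 to 104 and 130 (3.59; 4.48 without GFP replicate 1 and 2.93 without GFP replicate 3).

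Immediate early genes and the feedback genes of MAP kinase signalling split. Of 39 tested, 17 fell and 10 rose (median log2 change -0.26), beside 16.0% and 17.6% of all genes tested. EGR1 and FOSL1 were named above among the largest falls. FOS had 220 and 223 normalised counts against 484, 511 and 668 (-1.31, SE 0.16, limma adjusted p = 8.68e-06), and JUN had 1380 and 1439 against 3171, 3912 and 4159 (-1.40, SE 0.11, limma adjusted p = 8.91e-08). Their AP-1 relatives went the other way. JUNB had 10469 and 11025 against 2321, 3414 and 2949 (1.91, SE 0.13, limma adjusted p = 1.39e-08), and FOSL2 rose by 1.45. NR4A3, an orphan nuclear receptor, had 250 and 216 against 20.9, 19.2 and 15.6 (3.59, SE 0.23, limma adjusted p = 7.63e-09), and ARC, known from activated neurons, had 737 and 583 against 84.4, 91.1 and 119 (2.74, SE 0.22, limma adjusted p = 1.04e-07). Phosphatases of MAP kinases also diverged: DUSP7 rose by 2.29, DUSP2 fell by 2.28, and DUSP6, the feedback phosphatase of ERK, had 96.0 and 75.4 against 87.4, 91.1 and 77.8. Within this list, the large rises and the large falls were thus in different genes of the same families.

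**Figure D4:**
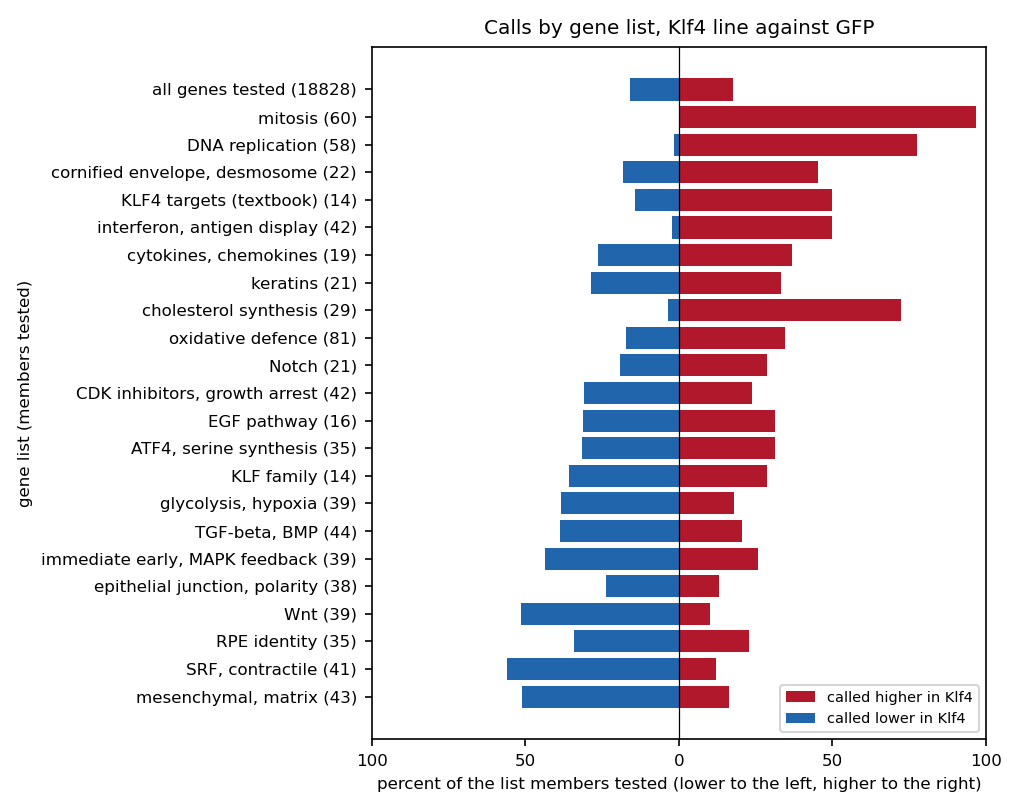
Bars give the percent of the tested members of each gene list called higher (red, right) and lower (blue, left) in the Klf4 line, with the number tested in brackets and all 18828 genes in the top row (17.6% and 16.0%). Mitosis (58 of 60 higher) and DNA replication (45 of 58) lie furthest to the right, and the contractile list (23 of 41 lower) furthest to the left.

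RPE genes changed in both directions. Of 35 tested, 12 fell and 8 rose, beside 16.0% and 17.6% of all genes tested. The median log2 change of the list was -0.34, and 13 fell and 9 rose without GFP replicate 1. Without Klf4 replicate 2, 9 fell and 8 rose, with a median of -0.04. PMEL, which forms the fibrils of the pigment granule, had 1356 and 1184 normalised counts against 4094, 5281 and 6067 (-2.0, SE 0.20, limma adjusted p = 1.02e-06). MITF, the regulator of pigment genes, had 2343 and 2515 against 3263, 3354 and 3602 (-0.49, SE 0.07, limma adjusted p = 9.76e-05). MERTK, the receptor for engulfing photoreceptor debris, fell by 1.16, the eye field factor LHX2 by 0.52 and the small heat shock protein CRYAB by 0.84. TYRP1, an enzyme of melanin synthesis, had 2057 and 1204 against 2168, 2491 and 2813. Its fall of 0.65 (limma adjusted p = 0.0144) rested on Klf4 replicate 2 (-0.27 and 0.34 without it) and missed the threshold without GFP replicate 3 (adjusted p = 0.0604). RDH5, the retinol dehydrogenase of the visual cycle, had 512 and 412 against 83.4, 74.9 and 67.1 (2.60, SE 0.19, limma adjusted p = 3.25e-08). SLC16A3, a lactate transporter, rose by 1.15, TIMP3, the metalloproteinase inhibitor deposited under the RPE, by 0.88, and OTX2, an RPE transcription factor, by 0.30. BEST1, a chloride channel of mature RPE, had 94.8 and 85.7 against 87.4, 103 and 136 and did not pass (limma adjusted p = 0.436). Melanocyte markers moved unevenly: of 8, S100B was at 0 in both Klf4 libraries, ERBB3 rose, and the summed level was 140 to 259 in GFP and 344 to 463 in Klf4. Their part in these results was not tested.

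The study's text names oxidative effectors as its interest. Of 81 oxidative defence genes tested, 28 rose and 14 fell, beside 17.6% and 16.0% of all genes. Without GFP replicate 1, 26 rose and 17 fell, and with only the groups compared in the fit, 25 and 10. The median log2 change of the list was 0.13, with 0.1 without Klf4 replicate 1 and 0.24 without Klf4 replicate 2. GSTA4, the glutathione transferase named in the series title, which detoxifies lipid aldehydes, had 177 and 129 normalised counts against 88.4, 127 and 125. Klf4 replicate 2 lay just above the highest GFP library, and the change did not pass (0.43, SE 0.17, limma adjusted p = 0.0697). Leaving out GFP replicate 1 lowered the change to 0.26 (limma adjusted p = 0.223). Leaving out GFP replicate 2 raised it to 0.52, which passed narrowly (limma adjusted p = 0.0464). The size also depended on the Klf4 library: replicate 1 alone gave 0.65, and replicate 2 alone gave 0.20. NFE2L2, the gene of the master regulator NRF2, rose by 0.37, while its inhibitor KEAP1 had 1899 and 1891 against 1861, 1959 and 1960 (-0.02; limma adjusted p = 0.826). NQO1, a classic NRF2 target, had 361 and 298 against 139, 170 and 168 (1.05, SE 0.13, limma adjusted p = 1.68e-05), and SLC7A11, the cystine transporter, rose by 1.45. TXNRD1, thioredoxin reductase and also an NRF2 target, had 7978 and 8595 against 17018, 17344 and 17728 (-1.07, SE 0.07, limma adjusted p = 1.31e-08). GPX3, secreted glutathione peroxidase, had 14253 and 14629 against 25404, 22825 and 23548 (-0.73, SE 0.08, limma adjusted p = 2.04e-06). TXNIP, the thioredoxin inhibitor, had 702 and 451 against 100.3, 133 and 108 (2.31, SE 0.21, limma adjusted p = 5.24e-07). PRDX5, a peroxiredoxin, rose by 0.87 and GPX8, a peroxidase of the endoplasmic reticulum, by 1.10. Known NRF2 targets were thus found among both the rises and the falls.

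Cholesterol synthesis genes rose by small amounts. Of 29 tested, 21 rose and 1 fell, beside 17.6% and 16.0% of all genes tested. Without GFP replicate 1, 19 rose and 2 fell, and with only the groups compared in the fit, 15 and 0. The median log2 change of the list was 0.31, with 0.35 without Klf4 replicate 1 and 0.36 without Klf4 replicate 2. EBP, a sterol isomerase of the pathway, had 281 and 329 normalised counts against 173, 211 and 177 (0.70, SE 0.14, limma adjusted p = 0.000951). Both Klf4 libraries lay above all GFP libraries, which the choice of EBP required. LSS, lanosterol synthase, was the member that fell (-0.22; limma adjusted p = 0.0225), and it missed the threshold without GFP replicate 2 or 3 or either Klf4 library (adjusted p from 0.0652 to 0.127). SREBF2, the regulator of these genes, rose by 0.19 (limma adjusted p = 0.0405) and missed it without GFP replicate 1 or 2 or either Klf4 library (adjusted p from 0.0512 to 0.15).

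Of 42 interferon and antigen display genes, 21 rose and 1 fell, beside 17.6% and 16.0% of all genes tested. Without GFP replicate 1, 22 rose and 1 fell, and without GFP replicate 2, 19 and 1. The median log2 change of the list was 0.54, with 0.44 without Klf4 replicate 1 and 0.68 without Klf4 replicate 2. The larger rises were in the display of peptides by class I molecules. PSMB9, a subunit of the immunoproteasome, had 252 and 210 normalised counts against 56.6, 19.2 and 25.3 (2.89, SE 0.33, limma adjusted p = 5.46e-06), and PSMB8, its neighbour in the genome and the complex, rose by 1.91. TAP1, the peptide pump, rose by 1.39, HLA-B by 1.5 and HLA-C by 1.37, and B2M, the shared light chain, had 9141 and 7146 against 3531, 3483 and 3626 (1.19, SE 0.09, limma adjusted p = 4.2e-08). Klf4 replicate 1 was the higher library for each of these genes. Reads of HLA genes may be split among near-identical family members. The interferon-responsive transcription factors did not move as one: IRF1 rose by 1.46, STAT2 fell by 0.39, and IRF9 did not pass (0.41; limma adjusted p = 0.0955). Of 8 immune cell markers 2 were tested, and 0 were called. PTPRC, CD3E and LYZ were among those at 0 in both Klf4 libraries. The summed level was 203 to 216 in GFP, 308 in Klf4 replicate 1 and 176 in Klf4 replicate 2. The part of immune cells in these rises was not tested.

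Of 19 cytokine and chemokine genes tested, 7 rose and 5 fell, beside 17.6% and 16.0% of all genes tested. CCL2, a monocyte attractant, had 91.4 and 146 normalised counts against 816, 327 and 281 (-1.86, SE 0.34, limma adjusted p = 0.00053), and IL33 and IL18 fell by 1.27 and 0.88. IL32 had 69.4 and 59.4 against 12.9, 0 and 1.94 (4.24; 3.35 without GFP replicate 2), at least 21.65-fold higher against the floor without GFP replicate 1. IL6 and CXCL8, markers of inflammation and of senescent cells, were near the floor in both lines and did not pass (limma adjusted p = 0.884 and 0.651).

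Signalling genes were examined by pathway. In the EGF family, ERBB3, a receptor that pairs with ERBB2, had 379 and 269 normalised counts against 72.5, 10.1 and 9.72 (log2 change 3.96, SE 0.60, limma adjusted p = 8.33e-05; 4.87 without GFP replicate 1). Its relatives went the other way or barely moved: ERBB2 fell by 0.49, and EGFR, with 5927 and 5765 against 6183, 6768 and 7176, passed narrowly (-0.20; limma adjusted p = 0.0462) and missed the threshold without GFP replicate 2 or 3 or either Klf4 library (adjusted p from 0.0958 to 0.202). The ligands BTC, betacellulin, with 701 and 476 against 85.4, 74.9 and 89.4, and TGFA rose by 2.78 and 1.24. Of 16 genes of this list tested, 5 rose and 5 fell, beside 17.6% and 16.0% of all genes tested. Called in either direction were 6 without GFP replicate 2 or GFP replicate 3, and 5 without either Klf4 library.

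In the Notch list, 6 of 21 rose and 4 fell, 47.6% called beside 33.5% of all genes tested. JAG1, a ligand, had 2405 and 2115 normalised counts against 379, 430 and 426 (2.45, SE 0.08, limma adjusted p = 1e-11), and LFNG, the glycosyltransferase that tunes ligand choice, had 215 and 256 against 13.9, 14.2 and 8.75 (4.18, SE 0.34, limma adjusted p = 1.39e-07). HES4, a target, rose by 1.76, whereas HES1 had 368 and 303 against 233, 352 and 299 (limma adjusted p = 0.363) and NOTCH1 had 1039 and 891 against 852, 737 and 905 (limma adjusted p = 0.124). MAML2, a coactivator, fell by 0.67. Wnt genes fell more often than they rose, 20 against 4 of 39, beside 16.0% and 17.6% of all genes tested. The falls of the list numbered 17 without GFP replicate 2 or 3. Its median log2 change was -0.29, and -0.39 without Klf4 replicate 1. AXIN2, a feedback target of beta-catenin, had 60.1 and 76.6 against 214, 160 and 144 (-1.31, SE 0.21, limma adjusted p = 0.000145). SFRP1, a secreted Wnt antagonist, had 6924 and 6248 against 15041, 16557 and 17479 (-1.31, SE 0.08, limma adjusted p = 4.65e-09), and FZD7, a receptor, fell by 1.01. WNT9A, a ligand, had 2030 and 1853 against 294, 332 and 372 (2.55, SE 0.11, limma adjusted p = 8.46e-11), and TCF7L2, a transcription factor of the pathway, rose by 1.15. Receptor, antagonist and feedback target thus fell while 1 ligand and 1 nuclear factor rose.

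Metabolic stress lists were mixed. Of 35 ATF4 and serine synthesis genes, 11 rose and 11 fell (median log2 change -0.08), beside 17.6% and 16.0% of all genes tested. ATF4 fell by 0.47, DDIT3 (CHOP) by 1.25 and STC2, a secreted stress protein, had 833 and 890 normalised counts against 2767, 2843 and 2977 (-1.73, SE 0.08, limma adjusted p = 3.6e-10). MTHFD1L, an enzyme of mitochondrial one-carbon metabolism, had 3284 and 2886 against 731, 764 and 794 (2.01, SE 0.08, limma adjusted p = 7.49e-11), DDIT4, an inhibitor of mTORC1, rose by 1.89, and SLC7A5, an amino acid carrier, by 0.82. Of 39 glycolysis and hypoxia genes, 15 fell and 7 rose, beside 16.0% and 17.6% of all genes tested. The list had a median of -0.17, and 19 fell and 7 rose without GFP replicate 1. HIF1A had 5934 and 6620 against 11814, 10856 and 10503 (-0.82, SE 0.10, limma adjusted p = 1.49e-05), and the hypoxia target ADM fell by 1.79, BNIP3 by 1.01, PGK1 by 0.79 and TPI1 by 0.71. CA9, carbonic anhydrase 9 and a classic hypoxia target, went against them, with 2792 and 1756 against 55.6, 94.1 and 83.6 (4.85, SE 0.28, limma adjusted p = 3.35e-09). LDHA had 7279 and 6880 against 5776, 5689 and 5464 and did not pass (0.33; limma adjusted p = 0.063).

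Direct contrasts with the other lines show where the Klf4 line differed from them. These contrasts share the Klf4 libraries. Between Klf4 and the Oct4 line 7857 genes were called (41.7%; 21.8% with Klf4 lower), between Klf4 and the Sox2 line 7673 (40.8%; 20.7% with Klf4 higher and 20.1% lower), and between Klf4 and OSK 4049 (21.5%; 11.9% higher and 9.56% lower), the last falling to 2519 without OSK replicate 2 and 2574 without Klf4 replicate 1. Keratins were more often called higher than lower in Klf4 against each line: 15 of 21 higher and 0 lower against Oct4, 14 and 1 against Sox2, and 10 and 3 against OSK. Here too a keratin could meet the filter through the Klf4 libraries, and could then hardly be called lower in Klf4. KRT14, for example, was at 0 in the Oct4 and Sox2 libraries. These counts may therefore lean towards Klf4. Mitosis genes were higher than in Oct4 (58 of 60) and Sox2 (47 of 60), whereas 1 was higher and 2 lower than in OSK. Contractile genes were lower than in Oct4 (30 of 41, with 2 higher) and Sox2 (30, with 3 higher), but 13 were higher and 2 lower than in OSK. TAGLN, for example, had 594 and 594 normalised counts in OSK, 844 and 996 in Klf4, and 10657 to 12300 in the Oct4 and Sox2 lines. RPE genes were more often higher than lower in Klf4 against each of the 3 lines (18 and 10 against Oct4, 22 and 5 against Sox2, 18 and 5 against OSK).

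In the Klf4 line 675 genes were higher than in each of the other 4 lines (3.59%), and 298 were lower than in each (1.58%). The count of 675 was 442 without Klf4 replicate 1, and that of 298 was 172 without Klf4 replicate 1 and 170 without OSK replicate 2. The 8 ranked highest by their smallest difference were SCEL, KRT16, KRT14, ADAM33, KRT4, SIGLEC1, TRIM29 and TARID. SCEL had at most 14.3 normalised counts in the 9 libraries of the other lines, and its log2 difference from OSK, the nearest line, was 5.56 (limma adjusted p = 2.22e-05). KRT16 had 53.1 and 20.9 in OSK, a log2 difference of 5.24 (limma adjusted p = 0.00176). In contrast KRT13 was not limited to the Klf4 line, with 3832 and 2913 in OSK against 1422 and 1469. ADAM33, a metalloprotease, had 655 and 571 in Klf4 and at most 28.2 elsewhere, with a log2 change from GFP of 5.89 (5.22 without GFP replicate 2). TRIM29, a protein of stratified epithelium, had 379 and 351 and at most 48.7 elsewhere. TARID, a long RNA antisense to TCF21, had 655 and 542 and at most 49.9 elsewhere (5.92 from GFP; 5.27 without GFP replicate 2), and SIGLEC1, a sialic acid-binding protein known from macrophages, had 357 and 217 and at most 41.7 (3.90 from GFP; 4.50 without GFP replicate 1). Both Klf4 libraries were above all 9 other libraries for each of these genes, which the way they were chosen favoured.

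Among genes with a mean of at least 100 in every other line, the 8 ranked lowest were AMIGO2, PRKAR2B, PTPRB, GDF11, AXIN2, PRICKLE1, DPYSL3 and SPRY4. AMIGO2, an adhesion protein of neurons and endothelium, had 42.8 and 68.6 normalised counts in Klf4, 149 to 168 in GFP, 1039 and 1360 in Oct4, 545 and 569 in Sox2 and 295 in both OSK libraries. PTPRB, a receptor phosphatase of endothelium, had 42.8 and 49.1 in Klf4 and 97.3 to 901 elsewhere. GDF11, a TGF-beta family ligand, had 235 and 395 in Klf4, 690 to 775 in GFP and 1399 and 1417 in OSK. SPRY4, an inhibitor of receptor tyrosine kinase signalling, had 76.3 and 93.7 in Klf4 and at least 148 in each other library. The smallest log2 differences among these genes were near 1. A gene ranked lowest needed a mean of at least 100 in every other line, and a gene ranked highest only in Klf4. The sizes in these rankings therefore cannot be compared. Of 8 endothelial markers 4 were tested, 1 fell and 0 rose against GFP (1 rose without GFP replicate 1). The one that fell was KDR (-0.79; limma adjusted p = 7.42e-06), which made up most of the summed level of 1095 to 1492 in GFP and 699 to 738 in Klf4. PECAM1, CDH5 and EMCN were at 0 in both Klf4 libraries, and PECAM1 and CDH5 had at most 2 reads in GFP replicates 2 and 3. Their part in these differences was not tested.

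**Figure D5:**
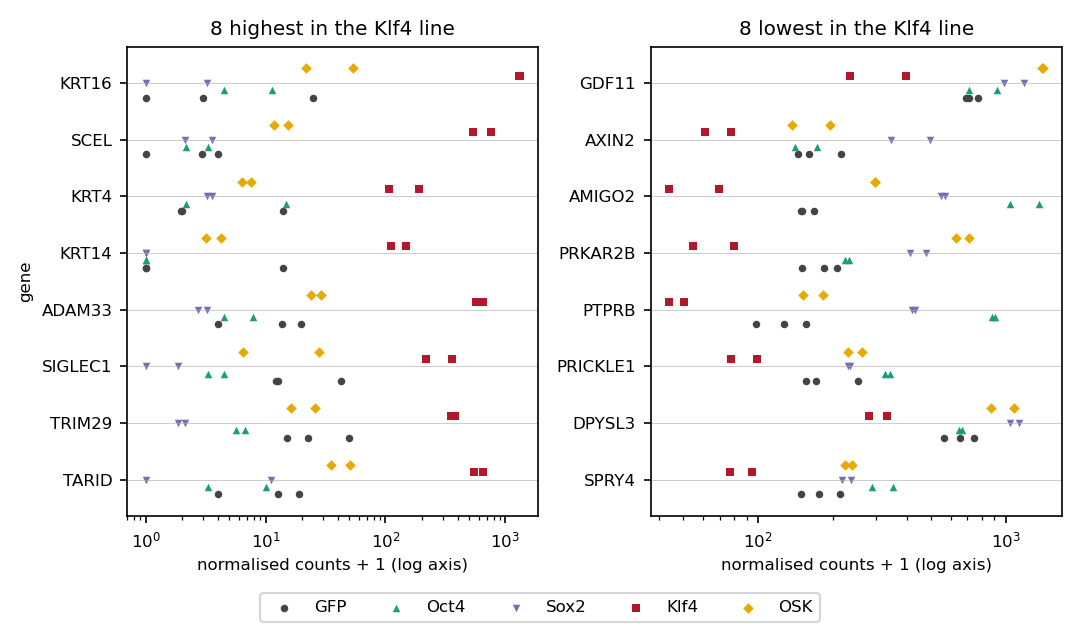
Normalised counts + 1 (log axis) in all 11 libraries for the 8 genes highest (left) and 8 lowest (right) in the Klf4 line against every other line; red squares are the Klf4 libraries and the other symbols the GFP, Oct4, Sox2 and OSK libraries. SCEL has 758 and 531 in Klf4 and at most 14.3 elsewhere. On the right the Klf4 libraries sit below all others, among genes chosen with a mean of at least 100 in every other line.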

How the data were processed

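Per the labels' protocols, RNA from TRIzol extraction was enriched on oligo(dT) beads, and the 11 libraries were made with an NEBNext Ultra II kit. STAR 2.7.1a, featureCounts 1.6.2 and the builds GRCh38/hg38 and GRCm38/mm10 are named in the submitters' processing notes. The annotation and the use of strand are not given in the sources used here. The deposited signal is normalised counts. Its values show that the authors divided each library's gene counts by 1 factor and rounded to 2 decimals. Values up to 200 were whole multiples of 1 read within 0.0061 in every library (100%), and over all nonzero values at least 99.977% were. For GFP replicates 1 and 2, whose steps (0.993 and 1.012) lie near 1, recovered reads rest on 23413 and 13624 values that part from whole numbers. All 60605 features had a name, 20014 of them an Ensembl ID only.

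The 18828 genes at 10 or more in 2 or more libraries were tested on log2(value + 1) with limma 3.58.1 in R 4.3.3 (lmFit, eBayes with trend), two-sided. This scale understates the change of low genes. A gene could meet the filter through the 2 Klf4 libraries alone, and could then hardly be called lower in Klf4. All 11 libraries entered 1 fit with a mean per line (6 residual and 9.21 prior degrees of freedom), with Benjamini-Hochberg adjustment over the genes tested and a threshold of 0.05. Where no library of a line had over 3 reads, the fold is a lower bound computed at 3 reads. Groups came from the sample titles. Some genes of the lists and of the naming rule are not reported here. The comparison, the gene lists, the naming rule and the tests were chosen with earlier results of these data known.

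The naming rule took KLF4, POU5F1, SOX2 and GSTA4. It took the 12 largest rises and falls called with and without GFP replicate 1, with a mean of at least 100 in the higher line, a symbol of their own and no overlap. It also took the first 3 genes of each list and the 2 largest rises and falls called in each list (mean of at least 20, no overlap). Last, it took the 8 genes highest and lowest in the Klf4 line against every other line. These needed a mean of at least 100, in Klf4 for the highest and in every other line for the lowest. Further list members were singled out after their values were seen, such as UNC5B, KRT13, TPM1, JUNB and SFRP1. RefSeq promoters (250 bases before the start) were matched by symbol for 8666 tested genes with a single start.

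Counts of all 11 libraries were simulated with 200 genes changed in the Klf4 line, far fewer than were called in the data. Of genes changed 1.5-fold, 2-fold and 4-fold, 51.5%, 81% and 97.5% were recovered, over 18178, 18190 and 18183 genes tested. Of the calls, 6.36%, 10.99% and 7.14% were false. Genes of the lowest counts were not among those changed, so recovery near the floor was not measured. The added features detected in GFP replicate 1 were not modelled. Alternatives were edgeR 4.0.16 (quasi-likelihood, TMM or median-of-ratios factors) and DESeq2 1.42.0 on recovered reads, TMM rescaling, pseudocounts of 0.5 and 5, no filter, a mean of at least 50, only the groups compared, a replicate block, and each library left out.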

Additional observations from a re-analysis of the deposited data

How the results depend on the processing

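The count of genes called between Klf4 and GFP (6315) ran from 4388 to 6597 when each library was left out in turn and from 5048 to 6336 under the other settings (6282 without both GFP replicate 1 and OSK replicate 1, chosen after seeing the data). DESeq2 on recovered reads gave 5213, edgeR 6048 (TMM) and 6126 (median-of-ratios), and no filter 5048, a setting that moved the median log2 change of all genes from -0.02 to -0.33. The KLF4 change stayed between 8.23 and 8.94. Against the Oct4 line (7857 genes) leaving out a library gave 6260 to 6571, against the Sox2 line (7673) 6006 to 6438, and against OSK (4049) 2519 to 3226. With a lone library left in a line, it is assumed to vary like the other lines. Genes higher in Klf4 than in each other line (675) numbered 442 to 766 when a library was left out, and genes lower than in each (298) 170 to 379. The latter were 195 with no filter and 198 with only the groups compared in the fit, all added after seeing the data. The EGF list held 10 genes called and 6 with no filter, 6 with only the groups compared and 6 with the replicate block, and 5 to 11 when a library was left out. The cause was not tested.

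Titles give replicate numbers 1 and 2 in every line, but do not say that a number is shared. Deviations of same-numbered libraries from their line means correlated at -0.07 to 0.04 among the lines of 2. Between GFP and Oct4, Sox2 or Klf4 the values ran from -0.049 to 0.031, but between GFP and OSK they were 0.435 and 0.31. As the titles state no pairing and most lines showed none, the numbers were not taken to pair the samples. With the replicate number as a block 5322 genes were called, of which 5161 were among the 6315. Under the block the rises of the cornified envelope and desmosome list went from 10 to 6 and the falls of the EGF list from 5 to 2. With only the groups compared in the fit, the falls of the Notch list went from 4 to 2. A mean of at least 50, which tests fewer genes, left 4 rises of 7 among textbook KLF4 targets and 4 of 7 among cytokines. For 229 genes named or singled out, 3404 values under the alternatives kept their direction wherever the gene was called. Of these, 105 (31 genes) lost the call, 14 (9 genes) gained it and 0 reversed. A mean of at least 50 gave no value for 31 of these genes. Depth limits the large rises most: genes with at most 3 reads in GFP have only a lower bound, and GFP replicate 1 holds reads of many features absent from the other GFP libraries.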
